A study of Mus musculus with 8 samples.

Results

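Intraepithelial T lymphocyte genes were followed through 8 Affymetrix arrays of mouse small intestinal epithelium, and their main divide lay between single arrays and not between the knockdown and control labels. The set was defined by name, as the probe sets that carry only 1 of the 10 genes Cd3e, Cd3g, Cd8a, Cd4, Gzma, Gzmb, Itgae, Ccl5, Lck and Ptprc. Of these, 9 were measured, each by 1 probe set, among 19938 genes in all. Lck, the kinase bound to the CD4 and CD8 coreceptors, had no probe set with that name in the annotation used and was not analysed here.

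Intraepithelial lymphocytes are T cells that sit between the epithelial cells of the gut above the basement membrane. Most of them in the small intestine carry CD8, store granzymes, and are held in place by the integrin CD103 (alpha E, encoded by Itgae) paired with beta 7, which binds E-cadherin on the epithelial cell. They come off with the epithelium when it is isolated, so their RNA is read together with that of the enterocytes. In such bulk RNA, fewer cells of a type and less RNA per cell cannot be told apart.

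All RNA came from male ICR mice, an outbred stock, aged 8 weeks. The tissue was taken 4 days after nucleic acids were introduced into the intestine of the living animals, which all groups share. The siRNA arm has 3 arrays with an siRNA against GFP (siGFP, the control) and 3 with siRNAs against YAP and TAZ (siYAP/TAZ), transcriptional coactivators restrained by the Hippo pathway. The shRNA arm has 1 array with a plasmid for an shRNA against LacZ (shLacZ, the control) and 1 with plasmids for shRNAs against YAP and TAZ (shYAP/TAZ). Transfection is the treatment of a tissue and not of a sorted population, and the labels do not say which cells took up the nucleic acids. The description of each control array names the 1 knockdown array it is the control for, which gives 3 siRNA pairs and 1 shRNA pair. It does not say what else the arrays of a pair share. Whether each array is its own mouse is not said, so the p-values below refer to the scatter among these arrays alone, which could be technical.

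The deposited values are linear intensities, with array medians from 76.4 to 95.5, and were compared here as quantile normalized log2 values. Pearson's r between arrays over all genes ran from 0.765 to 0.963. The targeted genes were not measurably lower under knockdown labels: siYAP/TAZ minus siGFP came to -0.12 (SE 0.32) on the log2 scale for Yap1 and -0.28 (SE 0.36) for Wwtr1, which encodes TAZ, with an exact two-sided permutation p of 0.8 and 0.6. The groups are therefore called by their labels. Epithelial markers, such as Epcam, Vil1 and Krt20, had a mean log2 level of 11.07 to 11.60 in every array.

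The promoters of 5 members are shown because 4 of them, Cd3e, Cd3g, Gzma and Gzmb, ran together over the arrays, as described below, while Ptprc did not. They are the 250 bases before the annotated start, from RefSeq on GRCm38.p6, which listed 7 of the 10 genes. Cd8a, which also ran with those 4 genes, and Lck were listed too and are not shown. Capitals mark matches, on either strand, to 6 short motifs: the RUNX letters TGTGGT, the ETS letters AGGAAG, the GATA letters AGATAA, the T-box letters AGGTGT, the TCF/LEF letters CTTTGA and the CRE letters TGACGT. All sequences run 5′ to 3′ toward the gene, and all 5 genes lie on the minus strand. For Ptprc, which has 2 listed starts, the upstream one is shown.
Cd3e, chr9:45009612-45009861: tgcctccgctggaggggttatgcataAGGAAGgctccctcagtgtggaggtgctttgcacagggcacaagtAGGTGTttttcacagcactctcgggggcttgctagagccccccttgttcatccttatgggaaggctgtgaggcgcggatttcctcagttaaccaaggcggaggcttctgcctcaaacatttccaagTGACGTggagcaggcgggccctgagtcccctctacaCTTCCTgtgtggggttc
Cd3g, chr9:44980432-44980681: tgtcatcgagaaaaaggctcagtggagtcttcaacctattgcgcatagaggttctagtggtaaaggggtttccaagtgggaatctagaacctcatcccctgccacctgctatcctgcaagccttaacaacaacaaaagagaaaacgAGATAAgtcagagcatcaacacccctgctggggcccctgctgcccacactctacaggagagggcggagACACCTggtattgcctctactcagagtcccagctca
Gzma, chr13:113100982-113101231: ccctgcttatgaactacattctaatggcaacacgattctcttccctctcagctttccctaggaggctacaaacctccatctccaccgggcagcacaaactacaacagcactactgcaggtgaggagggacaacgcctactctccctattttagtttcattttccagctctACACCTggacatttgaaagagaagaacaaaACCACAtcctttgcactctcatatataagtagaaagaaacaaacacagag
Gzmb, chr14:56262335-56262584: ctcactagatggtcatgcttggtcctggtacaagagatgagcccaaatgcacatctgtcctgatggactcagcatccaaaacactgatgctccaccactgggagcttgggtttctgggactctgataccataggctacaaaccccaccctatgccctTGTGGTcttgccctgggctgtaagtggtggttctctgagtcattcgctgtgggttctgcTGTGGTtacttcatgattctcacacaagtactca
Ptprc, chr1:138175306-138175555: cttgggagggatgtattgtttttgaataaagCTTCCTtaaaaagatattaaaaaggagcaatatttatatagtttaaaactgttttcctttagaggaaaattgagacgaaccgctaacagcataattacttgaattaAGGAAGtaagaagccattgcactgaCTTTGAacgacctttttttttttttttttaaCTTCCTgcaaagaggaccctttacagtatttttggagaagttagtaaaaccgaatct

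The RUNX letters stood in both granzyme promoters, once in Gzma and 2 times in Gzmb, and in 14.0% of 32851 promoters of that length. The T-box letters stood in Cd3e, Cd3g and Gzma and in 11.8% of all promoters. The ETS letters stood 2 times in Cd3e and 3 times in Ptprc, and in 29.5% of all. The CRE letters stood in Cd3e alone among the 5, and in 6.47% of all. GATA letters were in Cd3g (9.99% of all) and TCF/LEF letters in Ptprc (13.8% of all). No 1 motif was common to the 4 shown genes that ran together. The promoter of Cd8a, which ran with them, held 0 matches to the 6 motifs. A match is a description of letters and no measure of binding.

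No member differed between the siYAP/TAZ and siGFP arrays beyond the spread between arrays. With limma over all 19938 genes, 0 of the 9 members passed an adjusted p of 0.05 in either direction, as did 0% of all genes. At an unadjusted p under 0.05 there were 0 of 9 members and 1.19% of all genes. The 2 groups overlapped for all 9 members, while siYAP/TAZ lay wholly above siGFP for 1.6% of all genes and wholly below for 2.99%. In the mean, 6 members were higher and 3 lower in siYAP/TAZ, beside 46.4% and 53.6% of all genes, and the median member difference was 0.28, beside -0.02 for all genes. That median turned to -0.25 without siGFP 3 and -0.17 without siYAP/TAZ 3. All adjusted p-values of the members in this fit were 1.00.

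Cd3e and Cd3g encode the epsilon and gamma chains of CD3, the signalling part of every T cell receptor, and lie close together on chromosome 9. Cd3e had log2 intensities of 6.95, 6.80 and 5.29 in siGFP 1, 2 and 3 and of 6.39, 6.88 and 7.21 in siYAP/TAZ 1, 2 and 3, with 8.25 in shLacZ and 7.51 in shYAP/TAZ. Its lowest array was thus a control, siGFP 3, and its highest the other control, shLacZ, 7.82-fold apart. The siRNA difference was 0.48 (SE 0.47, 95% confidence interval -0.60 to 1.56), with an exact two-sided permutation p of 0.6, where the smallest p that 3 against 3 arrays allow is 0.1. It turned to -0.051 without siGFP 3. Cd3g had 6.58, 6.24 and 4.92 in siGFP, 5.60, 5.85 and 5.97 in siYAP/TAZ, 7.35 in shLacZ and 6.47 in shYAP/TAZ. The same 2 arrays stood at its ends. The siGFP mean was 5.91 ± 0.88 (SD, n = 3) and the siYAP/TAZ mean 5.81 ± 0.19 (SD, n = 3), so the 3 siYAP/TAZ arrays lay inside the range of the 3 controls (exact permutation p = 0.9).

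The coreceptors went 2 ways. Cd8a encodes the alpha chain of CD8, which intraepithelial cells carry as an alpha-alpha or an alpha-beta dimer. It had 6.49, 6.87 and 6.20 in siGFP, 6.18, 6.45 and 7.24 in siYAP/TAZ, 7.10 in shLacZ and 7.12 in shYAP/TAZ. The 2 shRNA arrays and siYAP/TAZ 3 were the highest, and the arrays spanned 2.09-fold. Its siRNA difference was 0.10 (SE 0.36, interval -0.73 to 0.93) and turned to -0.21 without siYAP/TAZ 3. Cd4, the coreceptor of helper T cells, was nearly level, with 6.28, 6.27 and 6.76 in siGFP, 6.44, 6.92 and 6.92 in siYAP/TAZ, 6.27 in shLacZ and 6.58 in shYAP/TAZ. It spanned 1.57-fold, and siYAP/TAZ 2 and 3 lay above the other 6 arrays. It was the 1 member of 9 that was higher in all 4 pairs, beside 6.02% of all genes, and none was lower in all 4, beside 8.95%. It was higher by 0.16, 0.65 and 0.16 in the siRNA pairs and 0.31 in the shRNA pair. The siRNA difference of 0.32 (SE 0.30, interval -0.37 to 1.01) did not pass (exact permutation p = 0.2).

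**Figure D1:**
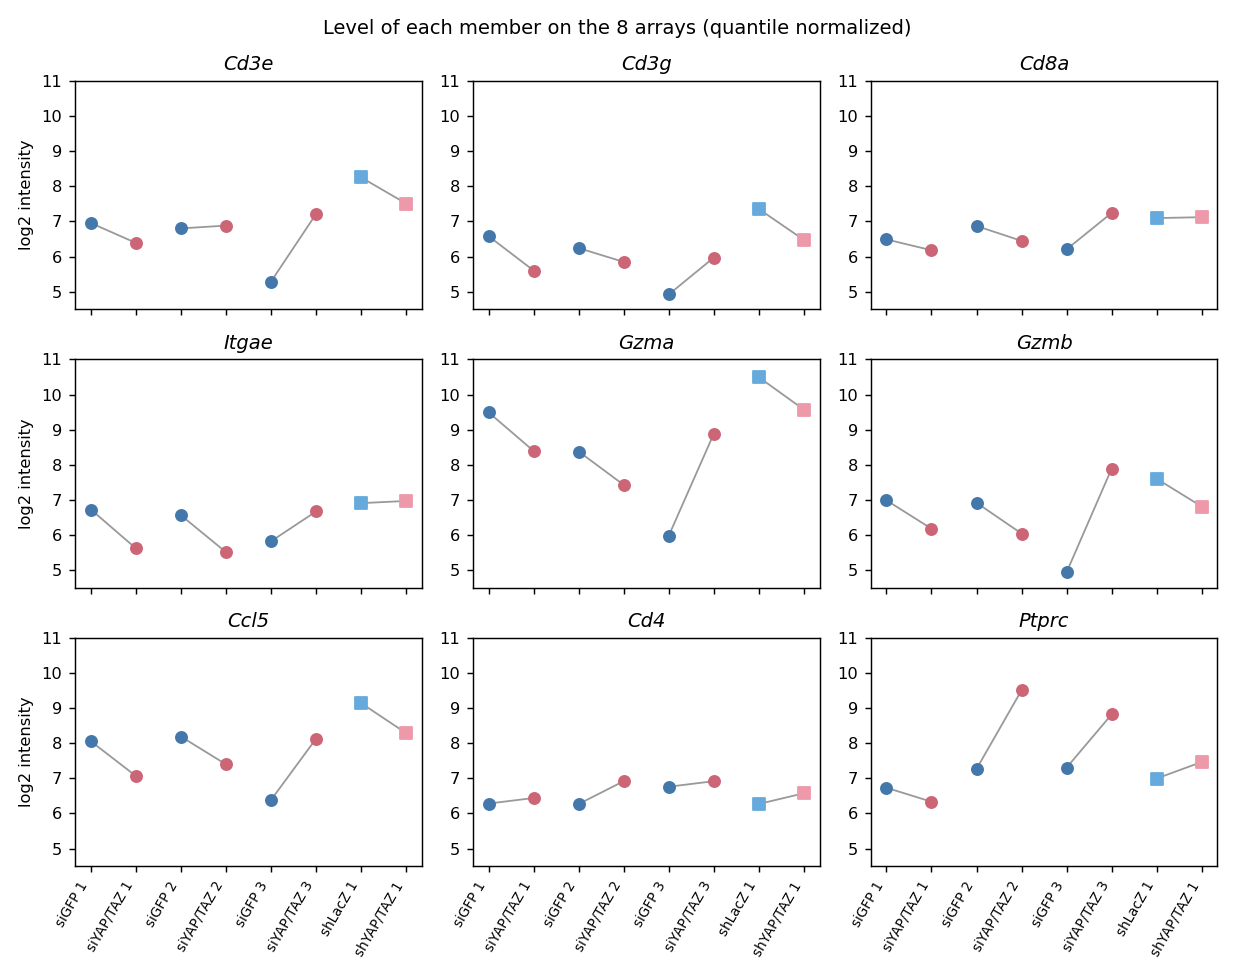
Quantile normalized log2 intensity (y axis) of the 9 measured genes on the 8 arrays (x axis); circles are siRNA arrays and squares shRNA arrays, blue for controls and red for knockdown labels, and a grey line joins the arrays of a labelled pair. The Cd3e, Cd3g, Gzma, Gzmb and Ccl5 points are lowest in siGFP 3, whereas Ptprc stands highest in siYAP/TAZ 2, at 9.51.

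The granzymes are serine proteases that cytotoxic cells release into their targets, and Gzma had the widest range over the arrays of the 9 members. It had 9.49, 8.38 and 5.98 in siGFP, 8.39, 7.43 and 8.89 in siYAP/TAZ, 10.49 in shLacZ and 9.57 in shYAP/TAZ. Its lowest and highest arrays, siGFP 3 and shLacZ, are both controls and stood 22.8-fold apart. Against that spread the siRNA difference was 0.28 (SE 0.80, interval -1.54 to 2.11; exact permutation p = 0.8), and it turned to -0.70 without siGFP 3. Gzmb, the granzyme that cleaves after aspartate, had 6.99, 6.92 and 4.94 in siGFP, 6.18, 6.04 and 7.89 in siYAP/TAZ, 7.60 in shLacZ and 6.81 in shYAP/TAZ. Here too siGFP 3 was lowest, but siYAP/TAZ 3 and not shLacZ was highest. The siRNA difference was 0.42 (SE 0.66) and turned to -0.25 without siGFP 3. Granzyme genes are similar in sequence, so probe sets of the family can share signal.

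Itgae and Ccl5 stand for residence and chemokine output. Itgae had 6.73, 6.56 and 5.82 in siGFP, 5.62, 5.51 and 6.67 in siYAP/TAZ, 6.91 in shLacZ and 6.97 in shYAP/TAZ. Its lowest arrays were siYAP/TAZ 1 and 2, which sets it apart from the CD3 and granzyme genes, and the 2 groups still overlapped because siYAP/TAZ 3 was high. The siRNA difference of -0.44 (SE 0.41, interval -1.37 to 0.49; exact permutation p = 0.3) was the lowest among the 9 and kept its direction when any 1 array was left out, from -0.81 without siYAP/TAZ 3 to -0.23 without siYAP/TAZ 2. Ccl5, a chemokine that memory and cytotoxic T cells make, had 8.06, 8.19 and 6.38 in siGFP, 7.07, 7.40 and 8.13 in siYAP/TAZ, 9.14 in shLacZ and 8.29 in shYAP/TAZ. The group means were 7.54 ± 1.01 (SD, n = 3) and 7.53 ± 0.54 (SD, n = 3), with a difference of -0.01 (interval -1.19 to 1.17).

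Ptprc encodes CD45, the tyrosine phosphatase of all nucleated blood cells, so it is not a mark of T cells alone. It had 6.73, 7.27 and 7.31 in siGFP, 6.34, 9.51 and 8.82 in siYAP/TAZ, 7.0 in shLacZ and 7.47 in shYAP/TAZ. The siYAP/TAZ group held both its highest arrays and its lowest. Like Cd4, it had siYAP/TAZ 2 and 3 above the other 6 arrays, a pattern of 8.86% of all genes. The siRNA difference was 1.12 (SE 0.71, interval -0.50 to 2.74; exact permutation p = 0.4). It was 2.06 without siYAP/TAZ 1 (limma adjusted p = 0.0723) and 0.48 without siYAP/TAZ 2. With pair 1 left out whole, as was tried once the values were known, it was 1.88 with a limma adjusted p of 0.0154, the 1 setting in which a member passed. In that setting 61 of all 19938 genes passed.

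Pair by pair, most members had opposite signs in siRNA pairs 1 and 3. In siRNA pair 1, 8 of 9 members were lower in siYAP/TAZ, beside 53% of all genes, and 1 was higher, beside 47%, with a median of -0.81. At least 2-fold lower were Gzma and Itgae, beside 2.34% of all genes, and 0 members were 2-fold higher, beside 2.02%. In siRNA pair 2, 6 of 9 were lower, beside 48.9% of all genes, and 3 were higher, beside 51.1%, with a median of -0.42. There Itgae was at least 2-fold lower, beside 8.36% of all genes, and Ptprc at least 2-fold higher, beside 4.79%. In siRNA pair 3, all 9 were higher, beside 45.5% of all genes higher and 54.5% lower, with a median of 1.52. Of them 7, all but Cd4 and Itgae, were at least 2-fold higher, beside 2.16% of all genes, and 0 were 2-fold lower, beside 1.66%. Gzmb stood at 2.95, Gzma at 2.91, Cd3e at 1.93 and Ccl5 at 1.74 in that pair. In the shRNA pair 5 of 9 were lower, beside 52.2% of all genes, and 4 higher, beside 47.8%, with a median of -0.75. None reached 2-fold, beside 1.84% of all genes 2-fold higher and 2.76% lower. Each pair is 1 array against 1, so these differences have no replicate check, and the difference between pairs was not tested.

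A pattern noticed in these values, lower in siRNA pairs 1 and 2 and higher in pair 3, was held by Cd3g, Cd8a, Gzma, Gzmb, Itgae and Ccl5, 6 of the 9 members, beside 9.55% of all genes. Of these, Cd3g, Gzma, Gzmb and Ccl5 were also lower in the shRNA pair, by -0.88, -0.92, -0.79 and -0.86, beside 6.94% of all genes with all 4 signs. The control of pair 3, siGFP 3, was the lowest of all 8 arrays for 5 of 9 members, beside 12.9% of all genes; its partner siYAP/TAZ 3 was the highest of the 6 siRNA arrays for Cd3e, Cd8a and Gzmb, but not for Cd3g, Gzma, Itgae or Ccl5. The control of the shRNA pair, shLacZ, was the highest of the 8 for 4 of 9, Cd3e, Cd3g, Gzma and Ccl5, beside 8.32% of all genes. With pair 3 left out whole, again once the values were known, the siRNA differences were -0.24 for Cd3e, -1.03 for Gzma, -0.84 for Gzmb and -1.08 for Itgae, none of which passed in limma (adjusted p = 1.00).

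**Figure D2:**
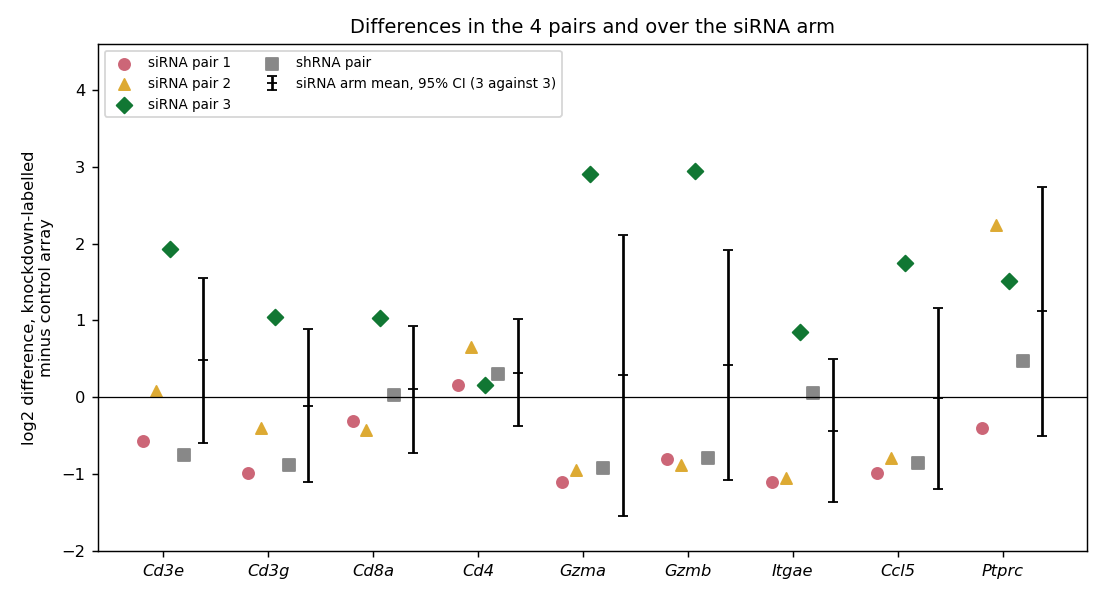
Log2 difference of each knockdown-labelled array from its labelled control (y axis) for the 9 members (x axis), 1 symbol for each pair, with the mean siRNA difference and its 95% confidence interval from limma in black. Pair 3 lies above 0 for every member and pair 1 below 0 for all but Cd4, and every interval spans 0.

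Likeness over the arrays separated 7 members from the other 2; the 7 were grouped after their values were seen. Among Cd3e, Cd3g, Cd8a, Gzma, Gzmb, Itgae and Ccl5, the 21 values of Pearson's r over the 8 arrays ran from 0.65 to 0.96 with a median of 0.83, and Spearman's rho from 0.62 to 0.88. Leaving out siGFP 3 and shLacZ, the arrays at the ends, brought r to 0.38 to 0.95 with a median of 0.74. Cd3e and Cd3g had r of 0.93 over 8 arrays and 0.63 without those 2. Ptprc had r of -0.27 to 0.25 with the 7 and 0.81 with Cd4. An r of 0.8 or more with Cd4 was common, at 9.56% of the 13291 genes with the highest mean levels, and with Ptprc 7.95%. For the 7 genes that share ran from 0.248% for Cd3e to 2.06% for Gzma. The lower r values within the 7 were less particular, as Cd8a ranked 1408 among the genes most like Gzma. The arrays share their normalization, the points are few, and these values are a description.

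**Figure D3:**
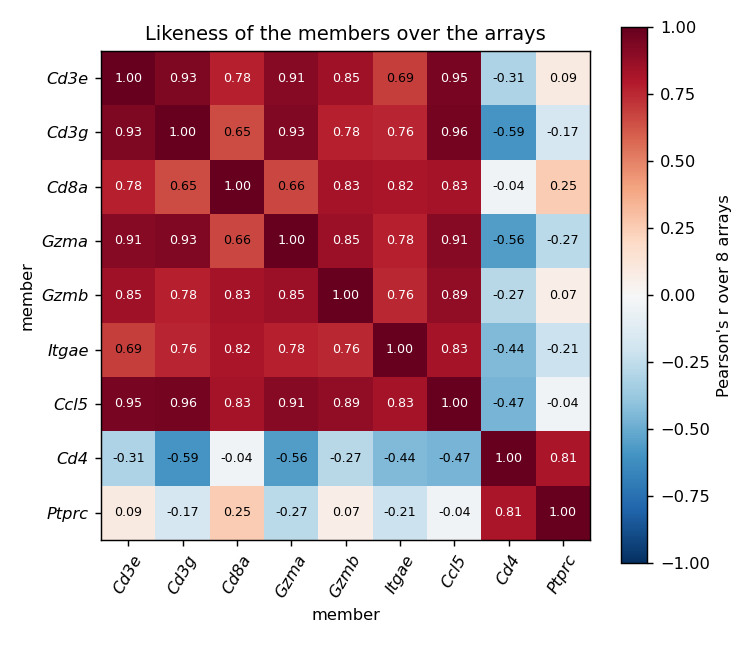
Pearson's r over the 8 arrays between each pair of members (both axes), with red for positive and blue for negative values. The 7 genes from Cd3e to Ccl5 form a block with r of 0.65 or more, and Cd4 and Ptprc share r of 0.81 outside it.

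Among the 13291 genes with the highest mean levels, the 3 most like Cd3e by Pearson's r were Fth1, the ferritin heavy chain (0.95), Ccl5 (0.95) and Cd3g (0.93). For Ccl5 they were Fth1 (0.97), Cd3g (0.96) and Tubb3 (0.95), and for Cd3g they were Ccl5, Tubb3 (0.94) and Cd3e. Nearest to Cd8a were Trgv1, a variable segment of the gamma chain of the T cell receptor (0.97), Zfpm1, a GATA cofactor (0.97), and Cd7, a surface protein of T and natural killer cells (0.96). Trgv1 had log2 values of 6.78, 7.20 and 5.60 in siGFP, 5.96, 6.19 and 7.65 in siYAP/TAZ, 7.64 in shLacZ and 7.85 in shYAP/TAZ. It followed Cd8a through the high shRNA arrays and the high siYAP/TAZ 3. For Gzma the nearest were BC024978 (0.97), Tubb3 (0.96) and Atp5h, a subunit of ATP synthase (0.95). For Gzmb they were Ndufv3, a subunit of respiratory complex I (0.93), Gatd3a (0.92) and Ggcx (0.92), and for Itgae Sdha, of succinate dehydrogenase (0.94), Tmem80 (0.94) and Gigyf1 (0.94). Atp5h, Ndufv3 and Sdha encode mitochondrial proteins and are not particular to lymphocytes.

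The neighbours of the other 2 members differed. Ptprc was nearest to Pip4k2a (0.99), Dennd4b (0.99) and Dock10, an exchange factor for small GTPases found in lymphocytes (0.99). Cd4 was nearest to Olfr1157, an olfactory receptor (1.00), Zfp605 (0.99) and Rhoh, a GTPase of blood cells (0.98). Those 3 genes spanned only 0.43, 0.29 and 0.93 on the log2 scale, and Cd4 0.65, beside a median of 1.13 for all genes. Of the 8 other members, 6 stood among the 100 genes most like Ccl5 or Gzmb and 5 among those most like Cd3e. The count was 4 for Cd8a or Gzma, 3 for Cd3g or Itgae, and 0 for Cd4 or Ptprc.

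Other T cell genes gave no call in the fit of all 6 siRNA arrays, where 0 genes of any list passed in limma. Without siYAP/TAZ 1, 6 list genes passed and were higher in siYAP/TAZ, the B cell genes Bank1, Cd22, Fcer2a, Ms4a1 and Pax5 and the chromatin organiser Satb1. Over all 19938 genes, 13 passed in that fit. With pair 1 left out whole, 13 list genes passed beside Ptprc: those 6 list genes, the B cell genes Cd79a, Cd79b, Cr2 and Fcrla, and Coro1a, Ikzf3 and Ciita. Over all genes, 61 passed there. Of 11 further genes of the receptor complex and its coreceptors, 6 were higher and 5 lower in the mean, with a median of 0.10. Beside this and the later lists, 46.4% of all genes were higher in the mean and 53.6% lower. Cd3d, the CD3 delta chain, stood at -0.34, Cd247, the zeta chain, at -0.33, Cd8b1, the CD8 beta chain, at 0.30, and Cd2, an adhesion receptor, at 0.59. Cd3d was dim, at percentile 6.33 of all genes by mean level, where a difference says little. Cd7 was the 1 of these 11 that was lower in pairs 1 and 2 and higher in pair 3, at -0.80, -0.66 and 1.96. That pattern was held by 9.55% of all genes. Of 18 T cell receptor signalling genes, 16 were higher in the mean, with a median of 0.35. An unadjusted limma p under 0.05 was found for 1 of them, beside 1.19% of all genes. That gene was Lat, the membrane adaptor of the receptor, at 1.09 (SE 0.38). Lat was higher in all 4 pairs, by 0.34, 1.90 and 1.04 and by 0.84 in the shRNA pair, beside 6.02% of all genes. Zap70, the kinase recruited to CD3, stood at 0.26, Lcp2 at 0.49, Fyn, a kinase of the Lck family, at 0.74 and Grap2 at 0.93, while Ptpn22 stood at -0.16 and Txk at -0.04. None of the 18 had the lower, lower, higher pattern of the 6 members.

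Cytotoxic effector genes, 15 in all, had a median of 0.02, with 9 higher and 6 lower in the mean. Gzmk stood at -0.34, Gzmm and Gzmc at 0.02 each, Prf1, which encodes perforin, at -0.24, Lamp1, a protein of lysosome and granule membranes, at -0.25, and Ifng at 0.36. Srgn, the proteoglycan that packs granules, stood at 1.09 (SE 0.36, unadjusted limma p under 0.05), but many blood cells make it. Srgn was higher in all 4 pairs, beside 6.02% of all genes. Only Nkg7 and Ctsw of these 15 had the pattern of the 6 members, beside 9.55% of all genes. Both are genes of cytotoxic granules and were named after their values were seen. Nkg7 stood at -0.98, -0.78 and 1.55 in the siRNA pairs and Ctsw at -0.34, -0.26 and 1.45. The pattern was also held by 4 of 16 homing, retention and chemokine genes and 4 of 19 natural killer type receptors. Among markers of other cells, 2 of 16 myeloid and 0 of 15 B and plasma cell markers held it. Of 16 homing, retention and chemokine genes, 11 were higher in the mean with a median of 0.40. Itgb7, the partner chain of CD103, stood at 0.52, Itga4 at 1.01, Itgal at 0.55, Itgb2 at 0.12, Coro1a, an actin regulator of leukocytes, at 1.33, Xcl1 at -0.47 and Itga1 at -0.39. Ccl3 stood at 1.06, with 8.18 in siYAP/TAZ 1 and 5.24 to 7.04 in the other 7 arrays.

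Receptors of interleukin 15 and related cytokines, together with the kinases and STAT factors that carry their signal, had a median of 0.16, with 7 of 11 genes above their siGFP mean. Il2rb, the signalling chain of the interleukin 15 receptor, stood at -0.03, with -0.61, -0.65 and 1.16 in the siRNA pairs, and Il2ra, Il7r and Il18r1 at 0.07, 0.44 and -0.03. Il21r stood at 1.04, Stat4 at 0.83 and Stat5a at -0.11. Natural killer type receptors gave 10 of 19 higher, with a median of 0.00. Klrk1 stood at -0.06, Klrd1 at -0.19, Klrc1 at 0.01, Klrc2 at -0.02 and Slamf7 at 0.83. Klrk1 and Klrc2 were dim, at percentiles 4.80 and 10.7 of all genes by mean level. The checkpoint receptors Ctla4 and Lag3 stood at 0.40 and -0.22, and Cd96 at -0.25. T lymphocyte transcription factors gave 11 of 17 higher, with a median of 0.30. Tbx21, which encodes T-bet, stood at 0.24, Eomes at 0.30, Runx3, a factor of CD8 cells, at 0.51, Runx1 at 1.07, Ets1 at 0.94, Bcl11b at -0.70 and Id2 at -0.76.

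Signals that epithelial cells send to these lymphocytes did not pass either, with 3 of 11 genes higher, 8 lower and a median of -0.08. Cdh1, which encodes E-cadherin, the ligand of CD103, stood at -0.19, and Ccl25, the chemokine that draws T cells to the small intestine, at -0.21. Il15 stood at -0.63 and was lower in all 4 pairs, by -0.46, -0.72 and -0.70 and by -1.33 in the shRNA pair. Its presenting receptor Il15ra stood at 0.73 (SE 0.31) and was higher in all 4, by 0.53, 0.74 and 0.92 and by 1.31. Over all genes, 8.95% were lower and 6.02% higher in all 4 pairs. Il18 stood at 1.25 (SE 0.42) and Tnfsf15 at -0.81. Il15ra and Il18 had an unadjusted p under 0.05, neither passed the adjusted threshold in limma, and for both the siRNA groups did not overlap, beside 1.6% of all genes wholly above and 1.19% under that p.

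Markers of other cells moved across the arrays beside the members. B and plasma cell markers, 15 of 16 measured, had a mean log2 level of 5.22 to 5.67 in the siGFP arrays and of 5.15, 7.55 and 6.76 in siYAP/TAZ 1, 2 and 3, with 5.71 in shLacZ and 5.04 in shYAP/TAZ. Their high arrays, siYAP/TAZ 2 and 3, are those of Ptprc and Cd4. For Cd8a and Gzmb, siYAP/TAZ 3 was also the highest array, but siYAP/TAZ 2 ranked 6 and 7 of 8. The highest array of Cd3e, Cd3g, Gzma and Ccl5 was shLacZ. Cd79a and Cd79b, the signalling chains of the B cell receptor, had siRNA differences of 1.11 (SE 0.68) and 1.66 (SE 0.74), Ms4a1, which encodes CD20, 1.87, Cd22 1.94 and Bank1 1.95, and Mzb1 of plasma cells -0.18. Naive and circulating lymphocyte genes, 8 of 10 measured, stood at 7.75 in siYAP/TAZ 2 and at 6.40 to 7.22 in the other arrays. Satb1 had a siRNA difference of 1.68 (SE 0.56), Ccr7, the lymph node homing receptor, 0.65, Lef1 0.40, Klf2 0.19, Igfbp4 -0.09 and S1pr4 -0.01. Myeloid markers, 16 of 16, lay between 6.04 and 6.88, highest in shYAP/TAZ. Csf1r and Adgre1, of macrophages, differed in the siRNA arm by -0.25 and -0.27, Cd68 by -0.17, Itgax by -0.05, Lyz2 by -0.67, and the neutrophil genes S100a8 and S100a9 by 0.67 and 0.95. The S100a8 and S100a9 means rest on siYAP/TAZ 1, at 6.99 and 8.21. Both genes were lower in siRNA pairs 2 and 3 and higher in the shRNA pair, by 1.05 and 2.26. Innate lymphoid and natural killer markers, 6 of 10, lay between 5.31 and 5.86. Among them Ncr1 had a siRNA difference of 0.21, Klrb1c -0.47, Il23r 0.33 and Il17a -0.27. Ncr1, Klrb1c and Il23r were dim, at percentiles 7.72, 6.39 and 4.55 of all genes by mean level.

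Crypt and cycling cell genes, 11 of 12 measured, stood at 9.38, 9.15 and 6.91 in siGFP and 8.68, 7.27 and 6.72 in siYAP/TAZ, with 8.73 in shLacZ and 8.14 in shYAP/TAZ. They were low in siGFP 3, where the 7 T lymphocyte genes had their lowest mean level of 5.65, but also in siYAP/TAZ 3, where the 7 genes stood at 7.43. The stem cell genes Lgr5, Olfm4, Ascl2 and Smoc2 had siRNA differences of -1.45, -1.76, -0.79 and -0.86. Interferon gamma response genes, 13 of 18 measured, had their highest mean level in siYAP/TAZ 3, at 8.63, and 6.56 to 7.75 in the others. All 13 were higher in siRNA pair 3, as were all 9 members, and 13 of 13 were higher in pair 2, where 6 of 9 members were lower. The siRNA differences of these response genes were 1.38 (SE 0.34) for Iigp1, 1.29 for Socs1, 0.88 and 0.61 for the chemokines Cxcl9 and Cxcl10, 0.83 for Ciita and 0.55 for Irf1. Of the 13, 4 had an unadjusted limma p under 0.05, beside 1.19% of all genes, and 0 passed the adjusted threshold. In 4 the siYAP/TAZ arrays lay wholly above siGFP, beside 1.6%, and 8 were higher in all 4 pairs, beside 6.02%. The part of these cell types in the members' values was not tested.

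**Figure D4:**
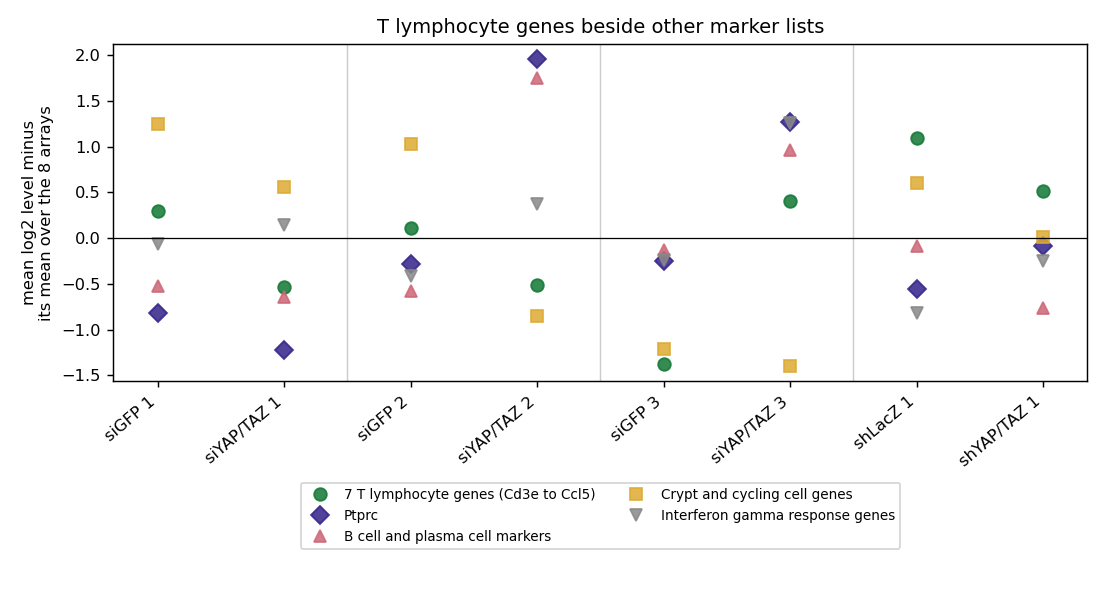
Mean log2 level of the 7 T lymphocyte genes, Ptprc and 3 marker lists on each array (x axis), as the difference from the mean of the same genes over the 8 arrays (y axis); grey lines part the labelled pairs. Ptprc and the B cell markers are highest in siYAP/TAZ 2 and 3, while the 7 T lymphocyte genes are lowest in siGFP 3, at -1.38, and highest in shLacZ, at 1.10.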

How the data were processed

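The deposited values are 1 intensity per probe set and array on a linear scale for 28853 probe sets; the labels name an Affymetrix WT Terminal Labeling and Hybridization kit, and how the authors corrected background, summarised and scaled is not stated in the labels. The lowest intensity of each array lies just above 16. The values were put on the log2 scale and quantile normalized. Probe sets naming 1 gene (21789) were kept, 21698 symbols were updated through Entrez identifiers with the GRCm38.p6 RefSeq table, and the probe set with the highest mean stood for each of 19938 genes. The siRNA arrays were compared with limma 3.58.1 in R 4.3.3 (lmFit, eBayes), Benjamini-Hochberg adjusted over all genes, with no filter on dim genes; single genes also had exact two-sided permutation tests. The shRNA arm has 1 array a group and no test. The fit was tested on simulated data.

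Named were the members, the first 4 genes and the 2 largest differences in each direction of each other list, list genes that passed in any fit, the 3 genes most like each member over the arrays, Yap1 and Wwtr1; epithelial markers are given as a level alone. The members and lists were chosen with earlier results of these data known. The number of arrays limits the precision.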

Additional observations from a re-analysis of the deposited data

How the results depend on the processing

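Alternatives were no normalization, centring on the 75th percentile, 15 subtracted before log2, the mean of all probe sets, leaving out the dimmest 33% of genes, a trended robust prior, array weights, a replicate block, all 8 arrays in 1 fit, and each siRNA array left out; leaving out both arrays of 1 number was added after seeing the data. The count of called genes was 0 in the main fit, 1 with the replicate block, 4 with all 8 arrays in 4 pairs as replicate block, 0 to 13 when 1 array was left out (13 without siYAP/TAZ 1) and 61 without both arrays numbered 1, where Ptprc passed at 1.88. The labelled pairs were used for description, and the main fit did not block on them. Deviations of same-numbered arrays from their group means correlated at 0.755, -0.13 and 0.571, and those of siGFP 3 and siYAP/TAZ 2 at 0.583. With 3 arrays a group, these values cannot decide what the arrays of a pair share. The blocked fit changed no member's call.

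Of 144 member differences under the alternatives other than left-out pairs, 129 kept their direction and side of the threshold and 15 turned. The mean of all probe sets, leaving out dim genes, the trended robust prior and the replicate block repeated the members' main differences. So did all 8 arrays fitted as 4 groups. Those settings could turn no direction, so part of the 129 was fixed in advance. Cd4, Itgae and Ptprc never turned. With 1 array left out, Cd3e ran from -0.051 to 0.78, Cd3g from -0.60 to 0.23, Cd8a from -0.21 to 0.32, Gzma from -0.70 to 1.06, Gzmb from -0.25 to 0.77 and Ccl5 from -0.59 to 0.31. For Cd3e, Cd8a, Gzma and Gzmb the sign turned without siGFP 3, and for the last 3 also without siYAP/TAZ 3 (-0.21, -0.041 and -0.17). Cd3g turned without siGFP 1 (0.23) or siGFP 2 (0.056), and Ccl5 without siGFP 1, siGFP 2, siYAP/TAZ 1 or siYAP/TAZ 2 (0.24, 0.31, 0.22 and 0.055). Gzma turned to -0.017 with 4 pairs as replicate block, and Ccl5 to 0.0091 with 15 subtracted. Without both arrays numbered 3, Cd3e stood at -0.24, Cd8a at -0.37, Gzma at -1.03 and Gzmb at -0.84. Without both numbered 2, Cd3g stood at 0.036 and Ccl5 at 0.38, and without both numbered 1 at 0.33 and 0.48. Scaling moved the median of all genes to as much as -0.14 (siRNA pair 3, no normalization) and 0.13 (siRNA pair 2, 75th percentile). Of 144 signs of members in single pairs, 0 turned under the 4 alternatives of scaling and probe set. Each member has 1 probe set, so the mean of all probe sets repeated the main values and could turn no sign. The causes were not tested.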

Other observations

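Variable segments of the T cell receptor, 9 of them measured as single genes and looked at after the members' values were seen, did not run together. Trgv1 had Pearson's r of 0.97 with Cd8a over the 8 arrays, while the other 8 had r of -0.17 to 0.31, Trdv2-2 of the delta chain at -0.00 among them. Trav12-2, Trav7n-5, Trav14-1 and Trav7d-4 were dim, at percentiles 0.321, 0.948, 5.49 and 8.16 of all genes by mean level, where r says little. Trav13-5 and Trav19 stood at 72.2 and 49.3, and Trgv1 at 59.9. Trgv1 was also the 1 segment of the 9 that was lower in siRNA pairs 1 and 2 and higher in pair 3. That pattern was held by 9.55% of all genes. Trgv1 did not differ between the siRNA groups, with a log2 difference of 0.07.

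Zfpm1, the GATA cofactor nearest to Cd8a, had log2 intensities of 7.29, 8.45 and 7.17 in siGFP, 7.11, 7.29 and 9.23 in siYAP/TAZ, 8.57 in shLacZ and 9.27 in shYAP/TAZ. Its siRNA difference was 0.24.

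Zbtb16, a transcription factor of innate-like T cells, stood at 7.64 in siYAP/TAZ 1 and 7.77 in shYAP/TAZ and at 5.15 to 5.76 in the other 6 arrays, and was named after its values were seen. Runx1 was higher in all 4 pairs, by 1.43, 1.31 and 0.46 in the siRNA arm and by 2.48 in the shRNA pair. Over all genes, 6.02% were higher in all 4 pairs.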
